A study of Oryza sativa with 3 samples.

Results

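The SWEET genes encode membrane transporters that let sugars move down their concentration gradient, out of or into a cell. The data concern 10 of them in rice (Oryza sativa), taken by locus identifier: SWEET1a, SWEET1b, SWEET2a, SWEET4, SWEET5, SWEET11, SWEET12, SWEET13, SWEET14 and SWEET15. They belong to a list of 21 rice SWEET genes written by identifier, and 8 of the 10 are among the 51597 genes that had a row of their own in all 3 libraries. The deposited tables describe all 10 as nodulin MtN3 family proteins, an older name of the family, and give no SWEET symbols. The gene table of another rice assembly (RefSeq, ASM3414082v1) lists all 10 symbols as synonyms, each on the chromosome of its identifier.

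Total RNA was sequenced from the node (nodes I and II), the stem and the leaf blade, with 1 paired-end library each. A node is a joint of the shoot, from which a leaf arises and in which its vascular bundles join those of the stem. All plants were described as grown at 29 °C with 12 h of light at about 80000 lux and 12 h of dark, in a greenhouse or a growth chamber. The labels name no cultivar, age or number of plants. With 1 library per tissue there was no replicate error, no p-value could be computed, and a gene was counted as higher or lower when its log2 difference of (FPKM + 1) reached 4-fold.

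FPKM (fragments per kilobase of transcript per 1000000 mapped fragments) came with an interval for each gene, read here as covering counting error only. The intervals imply 39960000 fragments in the node, 43160000 in the stem and 39880000 in the leaf blade, to the nearest 10000. By FPKM the leaf and node markers were each highest in the tissue of that label, and no marker particular to the stem was read. The 3 leaf mesophyll markers summed to 176 FPKM in the node, 709 FPKM in the stem and 4928 FPKM in the leaf blade. The 3 node markers (transporters of silicon, zinc and cadmium) summed to 250.02 FPKM in the node, 64.3 FPKM in the stem and 0.547 FPKM in the leaf blade. By implied fragments, scaled to 1000000 per library, only LSI2 of the 3 was higher in the node than in the stem, while LSI3 had 112 in the node and 120 in the stem, and HMA2 had 37.7 in the node and 38.3 in the stem. The 3 secondary wall cellulose synthases summed to 53.9 FPKM, 77.7 FPKM and 0.303 FPKM in the same order, and by fragments to 222, 207 and 1.28 per 1000000, so the order of node and stem turned. The 3 meristem homeobox genes summed to 386 FPKM, 448 FPKM and 0.579 FPKM; OSH15 was higher in the stem, and OSH1 and OSH71 were higher in the node.

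Plant SWEET proteins fall into clades with different preferred sugars. Clades I and II mostly carry glucose and other hexoses, clade III mostly carries sucrose, and clade IV sits in the vacuolar membrane in Arabidopsis. Leaves make sucrose, and sucrose must leave cells before sucrose transporters of the SUT type can load it into the phloem. In rice, SWEET11, SWEET13 and SWEET14 are also known as susceptibility genes, which Xanthomonas bacteria switch on in bacterial blight. No sequences are shown, because protein and promoter sequences of these genes were not used here.

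The SWEET levels differed between the 3 libraries, 1 per tissue. By FPKM, SWEET4 was the most abundant in every library among the 8 with a row of their own in all 3, though by implied fragments SWEET1b was ahead of it in the leaf blade. SWEET11 was at 17.04 FPKM in the node and under 1 FPKM elsewhere, SWEET13 and SWEET14 were highest in the stem, and SWEET1b was at 87.7 FPKM in the leaf blade while listed at 0 in the other tissues. SWEET5 and SWEET12 were near or at 0 everywhere. The plot of levels by tissue shows all 10 genes on one scale.

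**Figure D1:**
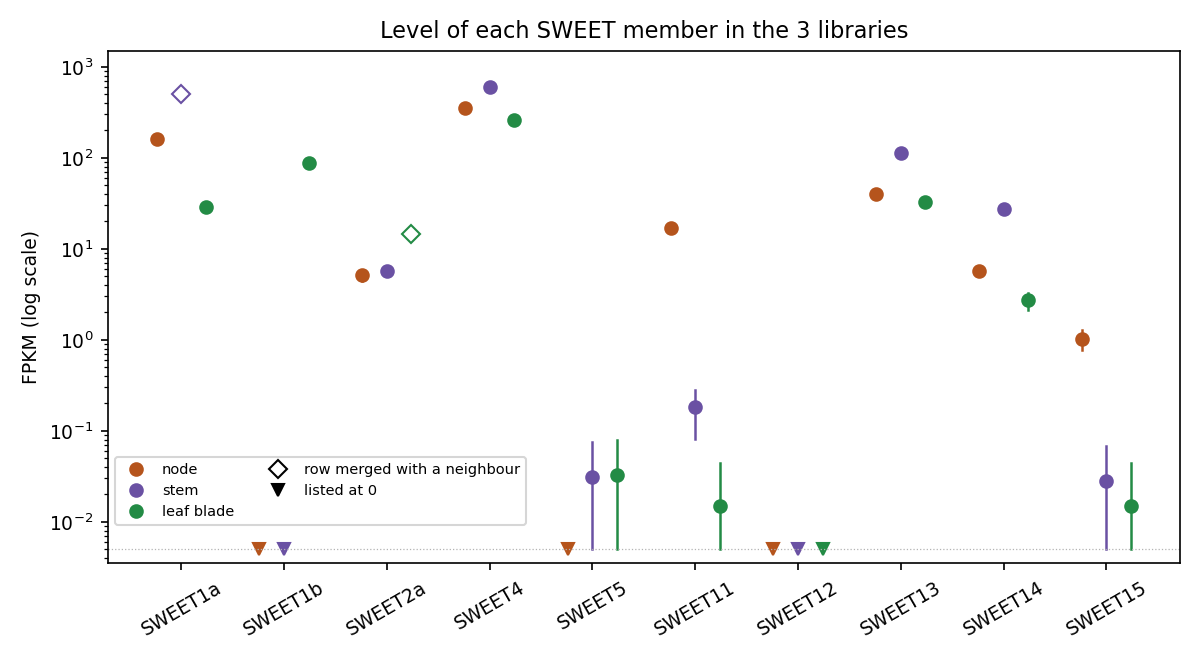
FPKM (log scale) of each of the 10 SWEET genes in node, stem and leaf blade, 1 library each; vertical lines are the deposited intervals, open diamonds are rows merged with a neighbouring gene, and triangles on the dotted line mark genes listed at 0. SWEET11 stands at 17.04 FPKM in the node against 0.182 FPKM in the stem and 0.0148 FPKM in the leaf blade, and SWEET1b is above 0 in the leaf blade only.

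Of the 10 genes, 6 reached 1 FPKM in at least 1 tissue with a row of their own in all 3 libraries, and these were compared. SWEET5 and SWEET12 stayed under that level. SWEET1a and SWEET2a each shared a row with a neighbouring gene in 1 library, so they are described by their values and left out of the counts. In node versus leaf blade 1 of 6 was higher by 4-fold or more (SWEET11), where 12.3% of the 20097 genes compared were higher, and 1 of 6 was lower (SWEET1b), where 7.29% of all genes were lower. In stem versus leaf blade 1 of 6 was higher (SWEET14), against 6.43% of all genes, and 1 of 6 was lower (SWEET1b), against 6.52%. In node versus stem 1 of 6 was higher (SWEET11), against 6.82%, and 1 of 6 was lower (SWEET14), against 2.30%. With 6 genes these shares cannot be set apart from those of all genes, and the comparisons share libraries.

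The median log2 difference of the 6 genes was 0.64 in node versus leaf blade, 0.71 in stem versus leaf blade and -0.38 for node versus stem. SWEET1b enters these medians, the counts of lower genes and the interval counts with values listed at 0. Its node versus stem difference of 0 is a middle value behind the -0.38. Over all genes compared, the medians were 0.13, -0.02 and 0.16. The shifts of 0.13 and 0.16 mean that a typical gene read slightly higher in the node, and relative to them SWEET11 differed by 4.02 between node and leaf blade and by 3.77 between node and stem. The intervals did not overlap for 6 of 6 genes in node versus leaf blade, where 82.1% of all genes had intervals apart. The same held for 5 of 6 in stem versus leaf blade (78.2% of all genes) and for 5 of 6 in node versus stem (74.3%).

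**Figure D2:**
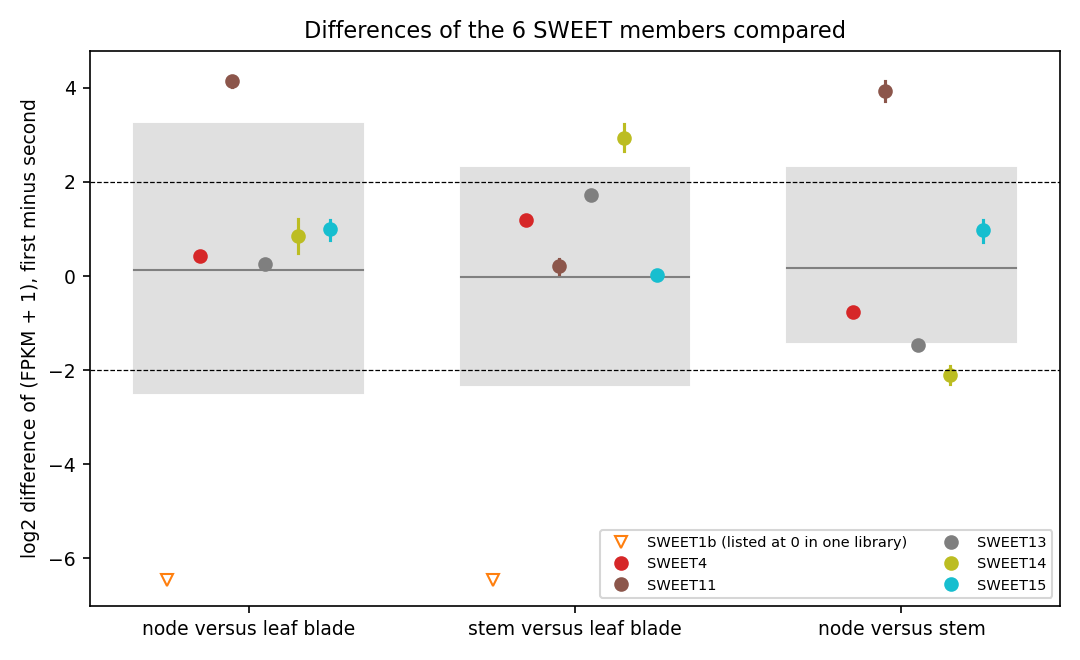
Log2 difference of (FPKM + 1), first tissue minus second, of the 6 SWEET genes compared; vertical lines run between the values from opposite interval bounds, grey boxes span the middle 90% of all 20097 genes with their median, and dashed lines mark 4-fold. SWEET11 lies above the grey box in both comparisons of the node, SWEET14 lies above it in stem versus leaf blade and below it in node versus stem, where SWEET13 is also just below; the open triangles of SWEET1b rest on a value listed at 0, so their height depends on the pseudocount.

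Among the clade I genes, SWEET1a was higher in the node than in the leaf blade, while SWEET1b was listed above 0 in the leaf blade only. Their closest studied relative, SWEET1 of Arabidopsis, carries glucose in both directions. SWEET1a (LOC_Os01g65880, chromosome 1, 38254049 to 38257687) had 159 FPKM in the node (interval 156 to 163) and 28.5 FPKM in the leaf blade (27.1 to 29.97). The node value was 5.58 times the leaf blade value, a log2 difference of 2.44, and 12.5% of the genes with a row of their own in both of these libraries were higher by 4-fold or more. In the stem SWEET1a shared a row with its neighbour LOC_Os01g65890, described as a DNA repair metallo-beta-lactamase, and that row had 497 FPKM (491 to 503).

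The fragments of SWEET1a and its neighbour can be summed to compare the locus pair across all 3 tissues. The pair had 224 implied fragments per 1000000 in the node, 652 in the stem and 49.2 in the leaf blade. The stem value was thus 13.2 times that of the leaf blade, and the node value was 0.343 times that of the stem. SWEET1a supplied 90.7% of the pair's fragments in the node and 77.95% in the leaf blade, and its share in the stem was not measured.

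SWEET1b (LOC_Os05g35140, chromosome 5, 20870121 to 20873875) was listed at 0 in the node and at 0 in the stem, and had 87.7 FPKM in the leaf blade (85.2 to 90.2). The leaf blade value rested on 4965 implied fragments and was above that of 93.4% of the genes compared. An exact 0 can be a failed estimate in such tables, so no fold is given. Such a pattern was uncommon: of 2606 genes at 50 FPKM or more in the leaf blade, 2 were listed at 0 in both other libraries. They were SWEET1b and LOC_Os08g44150, a transmembrane 9 superfamily gene named because the count was so small. In the reverse pattern, 5 genes were at 0 in the leaf blade while at 50 FPKM or more in both others. For the stem this was 1 gene, and for the node 0. These counts cannot tell a failed estimate from a true absence. Whether fragments of SWEET1a and SWEET1b can be assigned to either gene was not analysed here.

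SWEET2a (LOC_Os01g36070, chromosome 1, 19959667 to 19961992), whose Arabidopsis relative SWEET2 works at the vacuolar membrane of roots, was low in both tissues where it had its own row. It had 5.09 FPKM in the node (4.45 to 5.74) and 5.66 FPKM in the stem (5.02 to 6.31), and these intervals overlapped. In the leaf blade it shared a row with LOC_Os01g36064, described as a hAT dimerisation domain protein, at 14.6 FPKM (13.5 to 15.6). Summed over both genes, the pair had 16.1 implied fragments per 1000000 in the node, 53.4 in the stem and 18.01 in the leaf blade. SWEET2a supplied 38.7% of the pair's fragments in the node and 13.4% in the stem.

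Among the clade II genes, SWEET4 (LOC_Os02g19820, chromosome 2, 11592220 to 11596451) stood far above the others. SWEET4 is known from rice and maize grains, where it brings hexoses into the filling seed. It had 350.1 FPKM in the node (345 to 355), 593 FPKM in the stem (587 to 599) and 259 FPKM in the leaf blade (251 to 266). The order was stem, node, leaf blade, with no interval overlapping another, and each value was above at least 98.1% of the genes compared. By FPKM no difference reached 4-fold, with log2 differences of 0.43 for node versus leaf blade, 1.19 for stem versus leaf blade and -0.76 for node versus stem.

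The implied fragments behind SWEET4 differed more between tissues than its FPKM did. It had 21817 implied fragments in the node, 40957 in the stem and 4766 in the leaf blade. Per 1000000 fragments of the library, the node had 4.57 times and the stem 7.94 times as many as the leaf blade, against FPKM ratios of 1.35 and 2.29. Fragments per 1000000 divided by FPKM give the transcript length that the deposited values imply, and this was 1.56 kb in the node, 1.60 kb in the stem and 0.462 kb in the leaf blade. Of 14788 genes with at least 50 implied fragments in both node and leaf blade, 4.25% had implied lengths at least as far apart as SWEET4. With the intervals read as counting error, the leaf blade FPKM of SWEET4 implies a shorter length than the others. By implied fragments, SWEET4 was higher by 4-fold or more in both node and stem than in the leaf blade. SWEET14 showed a smaller gap of the same kind, with 1.55 kb, 1.59 kb and 0.852 kb, whereas SWEET13 had 1.78 kb, 1.83 kb and 1.87 kb in node, stem and leaf blade. An interval that covers more than counting error would lower both the implied fragments and the implied length. Which length is right, and whether the leaf blade intervals cover more than counting error, was not tested.

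**Figure D3:**
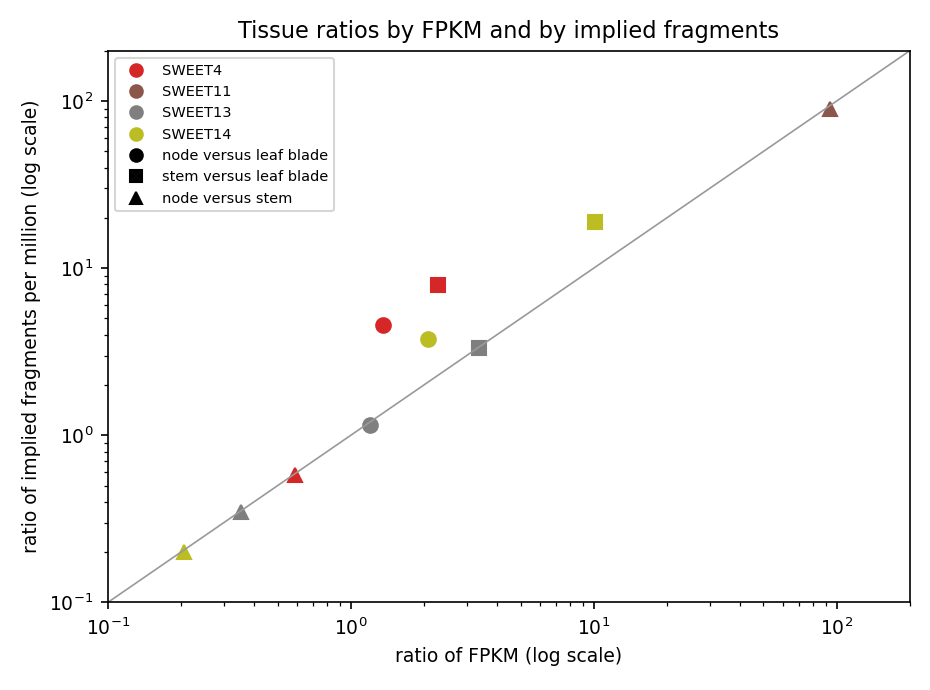
Ratio of implied fragments per 1000000 against ratio of FPKM between tissues (both axes log scale) for SWEET genes with at least 10 implied fragments in both libraries; the line marks equal ratios. SWEET4 and SWEET14 lie above the line in both comparisons with the leaf blade, with SWEET4 at 7.94 by fragments and 2.29 by FPKM in stem versus leaf blade, while SWEET13 and the node versus stem points lie near it.

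The other clade II gene was barely detected. SWEET5 (LOC_Os05g51090), a galactose transporter, was listed at 0 in the node and had 0.0314 FPKM in the stem and 0.0331 FPKM in the leaf blade, each from 2 implied fragments. These intervals overlapped, and no order can be read from them.

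The clade III genes differed in level, and they were not all highest in the same tissue. SWEET11 (LOC_Os08g42350, chromosome 8, 26725898 to 26728795) exports sucrose during grain filling and is the Xa13 gene of bacterial blight resistance. It had 17.04 FPKM in the node (16.003 to 18.1), 0.182 FPKM in the stem (0.0812 to 0.283) and 0.0148 FPKM in the leaf blade (0.00 to 0.0444). Only the node was above 1 FPKM, and no interval overlapped another. These values rested on 1077, 13 and 1 implied fragments. The log2 difference was 4.15 for node versus leaf blade, above that of 97.6% of the genes compared, and 3.93 for node versus stem, above 99.0%.

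SWEET15 (LOC_Os02g30910, chromosome 2, 18454404 to 18457136) acts with SWEET11 in grain filling in rice. It was low, with 1.03 FPKM in the node (0.776 to 1.28), 0.0282 FPKM in the stem and 0.0149 FPKM in the leaf blade. The node value came from 66 implied fragments, against 2 in the stem and 1 in the leaf blade. Like SWEET11 it was highest in the node, and the intervals of stem and leaf blade overlapped. With 1 added to each value, its log2 differences, 1.00 in node versus leaf blade and 0.98 against the stem, were under 4-fold. With 0.1 added in place of 1, SWEET15 passed 4-fold in both.

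SWEET14 (LOC_Os11g31190, chromosome 11, 18171678 to 18174478), a sucrose exporter that Xanthomonas activates, was highest in the stem. It had 5.66 FPKM in the node (5.05 to 6.26), 27.5 FPKM in the stem (26.2 to 28.7) and 2.72 FPKM in the leaf blade (2.15 to 3.28). All 3 intervals lay apart, in the order stem, node, leaf blade. The log2 difference was 2.94 in stem versus leaf blade, 0.84 for node versus leaf blade and -2.10 for node versus stem. The last lies close to the 4-fold bound: it was -1.61 with 5 FPKM added to each value, and its interval bounds reach -1.91.

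SWEET13 (LOC_Os12g29220, chromosome 12, 17302073 to 17305326), which exports sucrose and is the Xa25 gene of bacterial blight resistance, was the most abundant clade III gene in every tissue. It had 39.7 FPKM in the node (38.2 to 41.1), 112 FPKM in the stem (109 to 114) and 32.99 FPKM in the leaf blade (31.7 to 34.3). The order was again stem, node, leaf blade, with all intervals apart. No difference reached 4-fold, with log2 differences of 1.73 for stem versus leaf blade, 0.26 for node versus leaf blade and -1.47 for node versus stem. The fifth gene of the clade, SWEET12 (LOC_Os03g22590, chromosome 3, 13004686 to 13008130), was listed at 0 in all 3 libraries.

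Summed over its 5 genes, clade III had 63.4 FPKM in the node, 139 FPKM in the stem and 35.7 FPKM in the leaf blade. SWEET13 made up 62.6% of this sum in the node, 80.1% in the stem and 92.3% in the leaf blade. SWEET11 made up 26.9% in the node, 0.131% in the stem and 0.0415% in the leaf blade. SWEET14 held 8.93%, 19.7% and 7.60% in the same order. The makeup of the clade thus differed mainly by SWEET11 in the node and by SWEET14 in the stem.

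Over the 8 genes with a row of their own in all 3 libraries, the sum was 414 FPKM in the node, 732 FPKM in the stem and 382 FPKM in the leaf blade. SWEET4 held 84.7% of it in the node, 80.96% in the stem and 67.7% in the leaf blade, where SWEET1b held another 22.9%. The leaf blade order differs by implied fragments, where SWEET4 had 119 and SWEET1b 124 per 1000000. SWEET4 had 546 per 1000000 in the node and 949 in the stem. By fragments, node and stem thus lay further from the leaf blade for SWEET4 than by FPKM, and these sums rest largely on SWEET4. SWEET1a, left out of these sums, had a higher FPKM in the node than any of the 8 except SWEET4. In the stem the merged row of SWEET1a and its neighbour, also left out, had 497 FPKM. The shares therefore hold for the 8 genes only and would be smaller for SWEET4 with SWEET1a included.

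**Figure D4:**
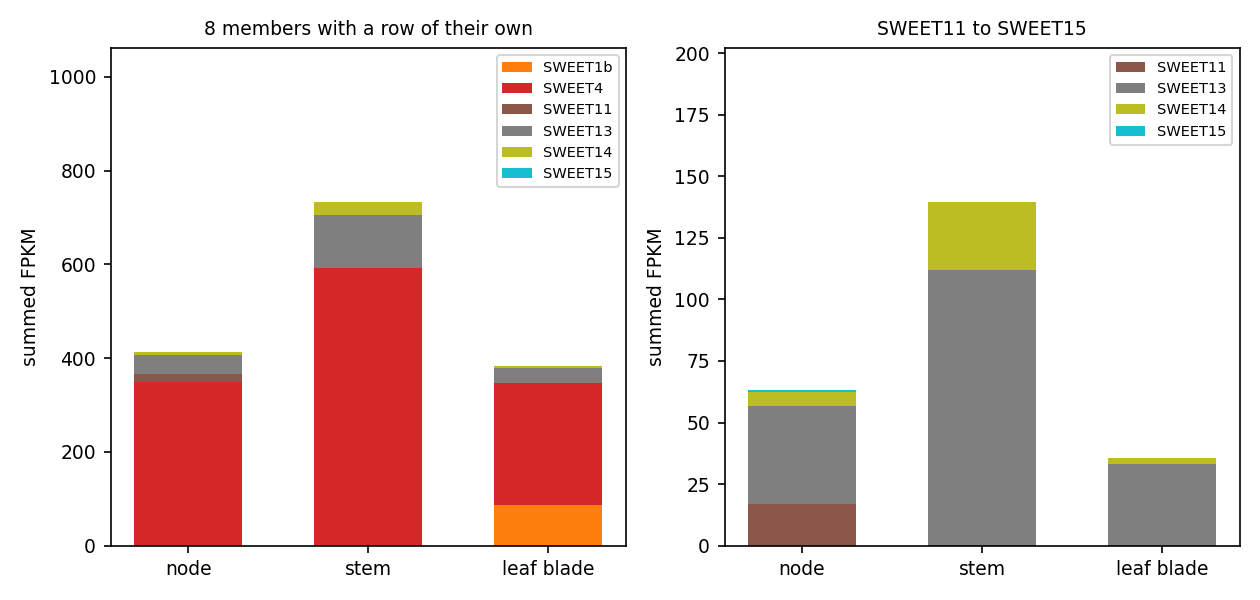
Summed FPKM of the 8 SWEET genes with a row of their own in all 3 libraries (left) and of the clade III genes alone (right), stacked by gene for node, stem and leaf blade. By FPKM SWEET4 is the largest part of each left bar, an order that turns for SWEET1b in the leaf blade by implied fragments (124 against 119 per 1000000), and in the right panel SWEET11 shows in the node (26.9% of the sum) and SWEET14 in the stem (19.7%).

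In tissue RNA of this kind, fewer cells of a type and less RNA per cell cannot be told apart. The levels of the mesophyll and secondary wall markers given above differed between the tissues, and the part of cell makeup in the SWEET levels was not tested. SWEET11 and SWEET15 are known from floral and seed tissues, so floral organ markers were read too. The 7 floral MADS-box genes summed to 97.3 FPKM in the node, 39.8 FPKM in the stem and 10.5 FPKM in the leaf blade. Nearly all of this was MADS16, at 91.3 FPKM, 37.98 FPKM and 8.93 FPKM. In each library 5 of the 7 were under 1 FPKM. MADS2 was also highest in the node, with 5.62 FPKM, against 1.495 FPKM in the stem and 1.42 FPKM in the leaf blade. MADS3 had 0.309 FPKM, 0.0398 FPKM and 0.0827 FPKM in the same order. Its node and leaf blade intervals overlapped, while its node and stem intervals did not, on 11.2 and 1 implied fragments. MADS8 had 0.0653 FPKM in the node and 0.0587 FPKM in the stem. MADS4 was listed at 0 in every library, and MADS58 and MADS7 were listed at 0 in the node. MADS58 was above 0 only in the leaf blade (0.0382 FPKM), and MADS7 only in the stem (0.249 FPKM). The part of floral tissue in the SWEET11 level was not tested.

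Among the 11 other SWEET genes on the list, 5 reached 1 FPKM and 4 were listed at 0 in all 3 libraries. In node versus leaf blade 1 of the 5 was higher by 4-fold or more (12.3% of all genes), and 1 was lower (7.29%). SWEET3a (LOC_Os05g12320), a clade I gene, had 172 FPKM in the node, 64.5 FPKM in the stem and 34.8 FPKM in the leaf blade, with a node value 4.95 times that of the leaf blade by FPKM and 3.27 times by fragments. SWEET2b (LOC_Os01g50460) went the other way, with 4.68 FPKM in the node, 15.9 FPKM in the stem and 25.5 FPKM in the leaf blade. In the comparisons with the stem none of the 5 reached 4-fold. SWEET16 (LOC_Os03g22200), of clade IV, had 18.7 FPKM in the node, 27.97 FPKM in the stem and 16.7 FPKM in the leaf blade. SWEET3b had 0.353 FPKM, 0.974 FPKM and 4.25 FPKM, and SWEET6b 1.86 FPKM, 6.56 FPKM and 2.45 FPKM, in node, stem and leaf blade.

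The genes around the SWEETs in sucrose movement were read from lists of 28 genes, of which 18 could be compared. In node versus leaf blade 2 of the 18 were higher by 4-fold or more (12.3% of all genes) and 4 were lower (7.29%). In stem versus leaf blade 2 were higher (6.43%) and 1 was lower (6.52%), and in node versus stem 2 were higher (6.82%) and 1 was lower (2.30%). Their median log2 difference was 0.47, -0.01 and 0.04 in these comparisons. SUS1, a sucrose synthase that splits sucrose inside the cell, had the largest difference, at 499 FPKM in the node and 2.63 FPKM in the leaf blade. The vacuolar invertase INV3 had 0.221 FPKM in the node and 11.5 FPKM in the leaf blade. The cell wall invertase CIN4, which splits sucrose outside the cell, had 1.64 FPKM in the node and 18.7 FPKM in the leaf blade. Its relative CIN2 went the other way, with 5.18 FPKM in the node, a value listed at 0 in the stem and 0.00989 FPKM in the leaf blade. The tonoplast sugar transporter TMT2 had 19.9 FPKM in the node and 153 FPKM in the leaf blade, and the sucrose phosphate synthase SPS11 had 2.69 FPKM in the node and 20.8 FPKM in the leaf blade.

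Some sucrose transporters load sucrose after it leaves a cell. SUT1 had 139 FPKM in the node, 126 FPKM in the stem and 104 FPKM in the leaf blade, and SUT4 had 17.1 FPKM, 10.4 FPKM and 10.4 FPKM in the same order. Neither reached 4-fold in any comparison. The implied fragments of SUT1 were 330 per 1000000 in the node, 304 in the stem and 113 in the leaf blade. With intervals read as counting error, its leaf blade FPKM also implies a shorter length, which was not tested. SUT2 shared a row with a neighbour in every library, SUT3 was listed at 0 throughout, and SUT5 stayed under 1 FPKM.

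The 3 genes whose levels over the 3 libraries lay closest to those of SWEET4 were LOC_Os02g50240, LOC_Os06g02144 and LOC_Os03g56790. They are described as a glutamine synthetase, a 6-phosphogluconate dehydrogenase and an actin-depolymerizing factor. Their distances from SWEET4 in log2 of (FPKM + 1) were 0.31, 0.33 and 0.37. With 3 libraries this is a likeness of level and order only.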

How the data were processed

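For each library the authors deposited FPKM values of genes together with interval bounds below and above, per the file headers. The submitters' processing notes name TopHat but no version, and the program that computed FPKM, the genome build and the annotation are not given in the sources used here. Values in this unit depend on the length model and on the most abundant genes of each library. Fragments were implied from the upper bound, read as FPKM + 2 × FPKM / √n; in rows with fewer than 200 fragments, n lay within 0.02 of a whole number for 49.2% in node, 49.7% in stem and 49.2% in leaf blade, so no count test was run. Rows with no identifier (3227, 3016 and 3241) and rows of merged loci (1231, 1119 and 1220) were left out. The 51597 genes with a row of their own in all libraries were used, and those reaching 1 FPKM in some tissue (20097) were compared as log2 ratios of (FPKM + 1), which understates differences of low genes, counted at 4-fold. Locus starts were taken to count from 0 and 1 was added; this is inferred. No source used here gives the strand, and fragments of overlapping genes or close copies could be assigned to either.

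Members and lists were chosen with earlier results of these data known. The text names all 10 members, other SWEET genes at 1 FPKM or more, the gene with the largest difference in each sugar list (SUT1 and CIN2 were added after their values were seen), and the 3 genes nearest to the most abundant member. Alternatives numbered 11, of which 3 were chosen after seeing the data. Python 3.11.15, numpy 2.4.6, pandas 2.3.3 and matplotlib 3.10.9 were used.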

Additional observations from a re-analysis of the deposited data

Results flagged for a closer look

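Signals in rows that the comparisons left out bear on 3 of the SWEET genes. In the stem, the row that merges SWEET1a with its neighbour LOC_Os01g65890 had 497 FPKM, above the node value of SWEET1a alone (159 FPKM). In the leaf blade, the row that merges SWEET2a with LOC_Os01g36064 had 14.6 FPKM. In the node, a row with no identifier (chromosome 5, 20873832 to 20877201) overlapped the last 44 bases of the SWEET1b locus and had 3.69 FPKM from 84.5 implied fragments, while SWEET1b itself was listed at 0 there. No such row overlapped SWEET1b in the stem or the leaf blade.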

How the results depend on the processing

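No paired analysis was possible because each tissue is 1 library. All 17 member differences other than 0 kept their sign under the 5 alternatives run on them (pseudocounts of 0.1 and 5 FPKM, FPKM rescaled to the same sum, centring on the median, and fragments per 1000000). A change of pseudocount cannot turn a sign, so sign says little here. Sizes changed more: of 90 alternative values, those of the difference at 0 included, 43 fell outside the bounds from the intervals. SWEET11 in node versus leaf blade went from 4.15 to 7.22 with 0.1 FPKM added and to 2.14 with 5 FPKM added. Of 66 recounts of members called, 55 stayed within 1.5 times. In node versus leaf blade, where 1 was higher, 2 were with a pseudocount of 0.1 FPKM (SWEET15 added) or by fragments per 1000000 (SWEET4 added), and 2 were when genes with a row of their own in both libraries were used or merged rows stood for the member (SWEET1a added). In stem versus leaf blade, where 1 was higher, 3 were at 2-fold, 2 by fragments per 1000000 and 2 with merged rows. In node versus stem, where 1 was higher and 1 lower, 2 were higher with a pseudocount of 0.1 FPKM, 2 were lower at 2-fold, and 0 were lower with a pseudocount of 5 FPKM or with the smallest difference within the intervals. No p-value between tissues could be computed with 1 library each. Interval bounds were read as covering counting error only, which was not tested, and differences between plants were not measured.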
